A study of Mus musculus with 11 samples.

Results

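Lymphocytes were followed in mouse liver through 9 of their genes: Cd3e and Cd3g of the T cell receptor complex, the co-receptors Cd4 and Cd8a, Cd79a and Cd79b of the B cell receptor, the cytotoxic granule genes Nkg7 and Gzma, and Ikzf3, a transcription factor of the Ikaros family. All probes of these genes were taken by the transcript that the array design assigns to each probe, without the use of any measured value. This gave 14 of 56605 probes. A probe was tested when its signal was well above background, by the flag of the scanner software, on at least 2 of the 11 arrays. This held for 13 of the 14 probes and for 36055 probes in all, and 9 of the 14 were well above background on all 11 arrays. All livers came from male C57Bl6/J mice that were 8 weeks old when an adeno-associated virus of type 8 (AAV8) was injected into the peritoneum, and the tissue was taken 5 days later. The 3 GFP arrays represent mice given 6e+11 vector genomes of a vector for green fluorescent protein. The 3 NICD1 and the 3 NICD2 arrays represent mice given 3e+11 vector genomes of the intracellular domain of Notch1 or Notch2 together with 3e+11 of the GFP vector. The 2 NICD1&2 arrays represent mice given 3e+11 vector genomes of each intracellular domain and no GFP vector. Every group therefore carried the same total dose of virus, and no liver without virus was analysed here. The vectors used the CMV promoter, which is not restricted to hepatocytes. The methods state that experiments were repeated with at least 3 mice per group. The labels do not say that each array is a separate mouse, so p-values measure only the spread between arrays, which may be technical.

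Lymphocytes make up a small share of the cells of a healthy liver and lie in the sinusoids and portal tracts among hepatocytes. The CD3 chains carry the signal of the T cell receptor, the CD79 chains carry that of the B cell receptor, and granzymes kill target cells after release from the granules of natural killer (NK) and cytotoxic T cells. Ikzf3 encodes Aiolos, a zinc finger repressor made mainly in lymphocytes. Notch1 directs T cell fate in the thymus and Notch2 directs marginal zone B cell fate in the spleen, in both cases as an intracellular domain bound to the DNA-binding protein RBPJ.

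RBPJ binds DNA with the core TGGGAA, and the Ikaros family binds sequences that share the bases GGGAA with it. Promoters are therefore shown for the members in which this core lies close to the start of the gene. The RefSeq promoter table (GRCm38.p6) held 6 of the 9 genes and had no entry for Cd4, Cd79b and Ikzf3. TGGGAA, searched on both strands (TTCCCA on the other), was present in the 250 bases before the start of Cd3e, Cd3g and Cd8a, and these letters were not in this window of Cd79a, Nkg7 and Gzma. Of all 32851 promoters in the table, 7094 (21.6%) held it, so a match is common and is not a measured site. The 3 windows are given on the strand of the gene, with the match in capitals. The Cd3e window lies at chr9:45009612-45009861 on the minus strand, with the match 123 bases before the start. The Cd3g window lies at chr9:44980432-44980681 on the minus strand, with the match 174 bases before the start. The Cd8a window lies at chr6:71373177-71373426 on the plus strand, and its match is on the reverse strand, 89 bases before the start.
Cd3e: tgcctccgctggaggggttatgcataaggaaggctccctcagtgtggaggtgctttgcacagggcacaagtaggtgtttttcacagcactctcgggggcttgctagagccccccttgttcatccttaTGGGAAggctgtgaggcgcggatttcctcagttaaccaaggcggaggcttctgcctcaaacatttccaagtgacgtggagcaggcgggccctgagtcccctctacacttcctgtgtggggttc
Cd3g: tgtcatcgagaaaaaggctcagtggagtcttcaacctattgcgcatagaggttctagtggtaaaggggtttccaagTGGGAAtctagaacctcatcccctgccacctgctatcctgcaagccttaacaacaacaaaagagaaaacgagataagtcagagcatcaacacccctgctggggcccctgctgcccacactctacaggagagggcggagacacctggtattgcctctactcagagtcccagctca
Cd8a: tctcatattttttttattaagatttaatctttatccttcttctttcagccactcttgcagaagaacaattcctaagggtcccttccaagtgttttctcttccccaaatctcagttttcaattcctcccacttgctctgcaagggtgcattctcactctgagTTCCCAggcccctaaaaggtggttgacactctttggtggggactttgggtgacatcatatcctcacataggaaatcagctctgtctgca

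Most lymphocyte genes were detected in these livers, and few of them differed between the groups. Over the 13 member probes, 1 change passed a Benjamini-Hochberg adjusted p under 0.05 in limma: the least detected Ikzf3 probe was lower in NICD2 than in GFP livers. That probe was tested through 2 GFP arrays and 1 NICD1 array, was not well above background on any NICD2 array, and lost the call in 16 of 19 refits, so the call is given as a description. The T cell receptor, co-receptor, B cell receptor and cytotoxic genes were not called in any comparison. The B cell receptor genes had lower means in all 3 NICD groups than in GFP, by 0.13 to 0.93 on the log2 scale, without passing the test, and the sizes depended on single arrays. The question behind the comparisons is how Notch1 and Notch2 signals differ in their effect on the liver. The lymphocyte genes were taken as markers of the lymphocytes of the same tissue, which was not tested. In bulk liver RNA, fewer lymphocytes and less RNA per lymphocyte cannot be told apart.

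The values below are log2 signals relative to the 75th percentile of each array, as deposited, so that 0 is a signal at that percentile. Probes differ in how well they bind, so each probe is compared only with itself across arrays. Between 57.0% and 62.0% of spots were well above background on each array, and 0 spots were saturated. The 75th percentile itself, as a log2 signal, was 7.22 and 7.13 on the NICD1&2 arrays, below the 7.27 to 7.62 of all others, and its part in the NICD1&2 values was not tested. All 12 hepatocyte marker genes, among them Alb and Hnf4a, were well above background on every array. Of the Notch receptors and targets, none was called. Nrarp, a feedback inhibitor of Notch, was at least 4.65-fold higher with NICD2 (adjusted p = 0.104 in limma) and at least 7.07-fold higher with NICD1&2 (adjusted p = 0.0719 in limma) than in GFP, where it was well above background on no array. It was at least 1.29-fold higher with NICD1 (adjusted p = 0.839 in limma), where the group ranges overlapped. Hes1, a repressor that Notch induces, had log2 differences of -0.029 with NICD1, 1.64 with NICD2 and 1.36 with NICD1&2 (adjusted p = 0.994, 0.419 and 0.280 in limma). Of the 11 tested genes of this list, 1 with NICD1, 2 with NICD2 and 3 with NICD1&2 were beyond an unadjusted p under 0.15 with a fold change over 1.8, against 2.22%, 1.98% and 6.23% of all probes. Nrarp is in each of these counts and was tested only through NICD arrays, so nothing is read from them. The 3 genes with NICD1&2 were all higher: Nrarp, Hes1 and Sox9, a transcription factor of bile duct cells (log2 difference 1.16, adjusted p = 0.197 in limma, and 0.58 on its other probe). Hey1, of the same family as Hes1, was at 0.71 (adjusted p = 0.167 in limma), while Heyl was at -0.64 (adjusted p = 0.319) and Dtx1 at -0.72 (adjusted p = 0.162). Notch1 itself was at 0.22 with NICD1, -0.37 with NICD2 and 0.16 with NICD1&2 (adjusted p = 0.939, 0.894 and 0.810 in limma). Notch2 was at 0.29, 0.21 and -0.0016 in the same order (adjusted p = 0.817, 0.765 and 0.995 in limma). Whether these probes lie in the parts that the vectors carry was not tested.

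Ikzf3 had 3 probes. On probe A_55_P2504196, the least detected, the GFP arrays read -3.99, -4.50 and -4.27, the NICD1 arrays -4.66, -4.53 and -4.37, the NICD2 arrays -5.38, -5.49 and -5.50, and the NICD1&2 arrays -4.56 and -4.81. All NICD2 arrays were lower than every other array. The NICD2 mean was 1.20 log2 units below GFP (a log2 fold change of -1.20, SE 0.15, 95% interval -1.53 to -0.87, adjusted p = 0.0427 in limma, n = 3 and 3). The probe was well above background on 3 of 11 arrays, which were GFP 1, GFP 3 and NICD1 1, on 0 of 3 NICD2 arrays and on 0 of 2 NICD1&2 arrays. Its NICD2 level is therefore only a bound, and the probe was at least 1.29-fold lower with NICD2, while no fold is given for NICD1&2. An exact two-sided permutation of the arrays gave p = 0.1, the smallest that 3 arrays against 3 allow. The difference was -1.19 within slide 1 and -1.23 within slide 2. The call was lost in 16 of the 19 refits with other settings or without 1 array, where the adjusted p from limma ran from 0.0626 to 0.450. The log2 difference was -0.15 in the refit with normexp background correction and from -1.24 to -1.07 in the other 15 of these refits.

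The other Ikzf3 probes read differently. On probe A_55_P2113598, well above background on all 11 arrays, the GFP arrays read -0.46, -0.28 and -0.46, the NICD1 arrays -0.48, -0.45 and -1.10, the NICD2 arrays -0.45, -0.97 and -0.68, and the NICD1&2 arrays -0.35 and -0.21. The groups overlapped in every comparison with GFP, and the low NICD1 mean came from 1 array. The log2 fold change against GFP was -0.28 (SE 0.19, adjusted p = 0.914 in limma) for NICD1, -0.30 (SE 0.19, adjusted p = 0.863) for NICD2 and 0.12 (SE 0.22, adjusted p = 0.792) for NICD1&2. Without NICD2 2 the NICD2 value was -0.16, without NICD1 3 the NICD1 value was -0.069, and without NICD1&2 2 the NICD1&2 value was 0.050. On probe A_66_P109917, also well above background on all arrays, the GFP arrays read -3.05, -2.46 and -2.79, the NICD1 arrays -2.86, -2.46 and -3.21, the NICD2 arrays -3.17, -3.27 and -3.68, and the NICD1&2 arrays -2.28 and -2.88. The NICD2 arrays were all below the GFP arrays on this probe too. The log2 fold change was -0.61 (SE 0.25, 95% interval -1.18 to -0.04), which did not pass the adjustment (adjusted p = 0.707 in limma) and was -0.10 after normexp background correction. Neither of the 2 probes measured on all arrays was called with NICD2. Between NICD1 and NICD2, the log2 differences of these 2 probes were 0.02 and 0.53 (adjusted p = 1 for both in limma). The least detected probe was at least 1.07-fold higher with NICD1 than with NICD2 (adjusted p = 0.323 in limma), which was not called.

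**Figure D1:**
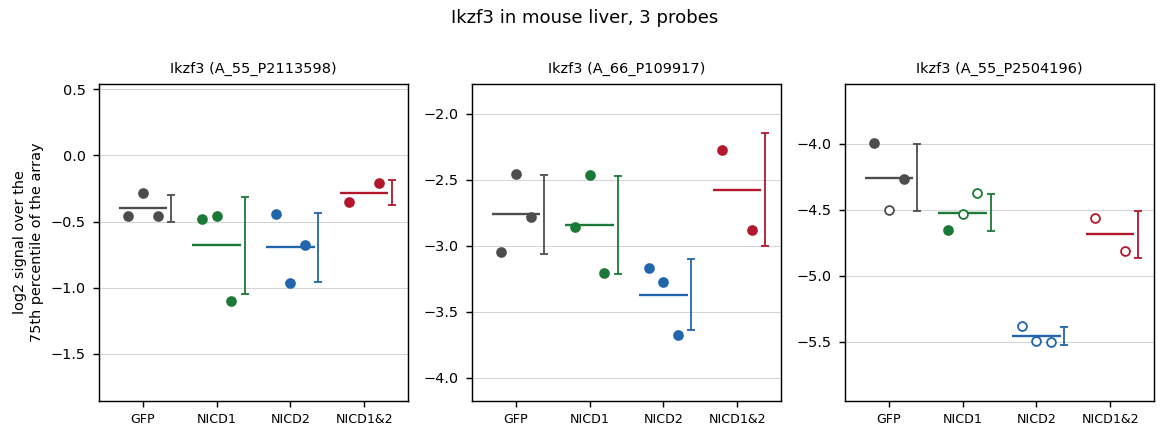
Log2 signal of the 3 Ikzf3 probes relative to the 75th percentile of each array, by group. Each point is 1 array (filled where well above background, open where not), the lines are group means and the bars to their right are 1 SD. On the least detected probe (right) the 3 NICD2 arrays lie between -5.50 and -5.38, below all other arrays, and all are open.

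The T cell receptor genes, whose promoter windows hold the TGGGAA core shown above, were not called in any comparison. Cd3e, the epsilon chain, was well above background on all arrays with both of its probes. On probe A_55_P2156229 the GFP arrays read 1.01, 1.27 and 1.06, the NICD1 arrays 0.97, 0.92 and 0.92, the NICD2 arrays 0.997, 0.98 and 0.96, and the NICD1&2 arrays 1.20 and 1.31. All NICD1 and NICD2 arrays lay below all GFP arrays, with NICD2 1 separated from GFP 1 by about 0.01. The means were 0.94 ± 0.03 (SD, n = 3) with NICD1, 0.98 ± 0.02 (SD, n = 3) with NICD2, 1.26 ± 0.08 (SD, n = 2) with NICD1&2 and 1.11 ± 0.14 (SD, n = 3) with GFP. The log2 differences of -0.18 for NICD1 and -0.13 for NICD2 did not pass the test (adjusted p = 0.903 and 0.881 in limma). On the other Cd3e probe, A_51_P455681, GFP averaged -1.39 ± 0.20, NICD1 -1.41 ± 0.33, NICD2 -1.34 ± 0.05 and NICD1&2 -1.22 ± 0.01, and all group ranges overlapped that of GFP. Over all NICD groups against GFP, the Cd3e log2 difference was -0.06 (95% interval -0.23 to 0.12) on the former and 0.07 (95% interval -0.24 to 0.38) on the latter. Cd3g, the gamma chain, read -3.31, -2.50 and -2.19 on the GFP arrays, -2.61, -2.70 and -2.85 with NICD1, -2.70, -3.11 and -2.48 with NICD2, and -2.28 and -2.12 with NICD1&2. The GFP arrays alone spanned more than 1 log2 unit, and every NICD group overlapped them. The log2 difference over all NICD groups was 0.11 (95% interval -0.41 to 0.62).

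Of the co-receptors, Cd4 was detected and Cd8a was at the limit of detection. Cd4, which marks helper T cells and is also made by some myeloid cells, was well above background on all arrays with probe A_55_P2013655. This probe read 3.58, 3.67 and 3.84 on the GFP arrays, 3.37, 3.73 and 3.48 with NICD1, 3.73, 3.64 and 3.86 with NICD2, and 3.85 and 4.07 with NICD1&2. Both NICD1&2 arrays were above the GFP arrays, by 0.26 log2 units on average (SE 0.14, adjusted p = 0.404 in limma). The median of all tested probes in that comparison was itself 0.12 higher. Over all NICD groups the Cd4 log2 difference was 0.05 (95% interval -0.20 to 0.29). The other Cd4 probe, A_52_P383089, was well above background on 10 of 11 arrays and ranged from -4.41 to -3.40, with a difference of 0.07 (95% interval -0.51 to 0.65). Cd8a, the alpha chain of the cytotoxic co-receptor, was well above background on 2 of 11 arrays (GFP 2 and NICD1 3) with probe A_52_P150547 and on 0 of 11 with probe A_52_P443334. The former ranged from -6.17 to -3.93 over the arrays, and its difference over all NICD groups was 0.33 (95% interval -0.70 to 1.36). This probe was not well above background on any NICD2 or NICD1&2 array. Its difference and interval are therefore a description only, and no change is read from them.

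The B cell receptor genes had the lowest means relative to GFP among the receptor genes. Cd79b, the beta chain, was well above background on all arrays. The GFP arrays read 0.16, -0.02 and -0.10, the NICD1 arrays -0.57, -0.28 and -0.06, the NICD2 arrays -0.48, -0.14 and -0.43, and the NICD1&2 arrays -0.23 and -0.01. The NICD2 arrays were all below the GFP arrays, while the NICD1 and NICD1&2 arrays overlapped them. The log2 fold change was -0.36 (SE 0.16, 95% interval -0.72 to -0.01, adjusted p = 0.718 in limma) for NICD2, -0.32 (SE 0.16, adjusted p = 0.903) for NICD1 and -0.13 (SE 0.18, adjusted p = 0.717) for NICD1&2. Within slide 1 the NICD1 difference was -0.64, and within slide 2 it was -0.07. Cd79a, the alpha chain, was well above background on 7 of 11 arrays: all GFP arrays, NICD1 3, NICD2 1, NICD2 2 and NICD1&2 2. It read -4.43, -2.99 and -3.92 on the GFP arrays, -5.65, -4.42 and -4.07 with NICD1, -4.42, -4.51 and -4.53 with NICD2, and -4.39 and -4.03 with NICD1&2. GFP 2 was the highest array and NICD1 1 the lowest, and GFP 1 lay within the range of NICD1 and NICD2. The log2 fold change was -0.93 (SE 0.44, adjusted p = 0.903 in limma) for NICD1, -0.71 (SE 0.44, adjusted p = 0.851) for NICD2 and -0.43 (SE 0.49, adjusted p = 0.668) for NICD1&2. Within slide 1 the NICD1 difference of Cd79a was -1.93, and within slide 2 it was -0.33. Single arrays moved these values. For Cd79a, the NICD1 difference was -0.46 without NICD1 1 and -0.54 without GFP 2, that of NICD2 was -0.31 without GFP 2, and that of NICD1&2 was -0.035 without GFP 2. After normexp background correction they were -0.064, -0.071 and -0.069. For Cd79b, the NICD1&2 difference was -0.020 without NICD1&2 1 and the NICD1 difference -0.18 without NICD1 1. Over all NICD groups the log2 difference was -0.69 (95% interval -1.52 to 0.14) for Cd79a and -0.27 (95% interval -0.57 to 0.03) for Cd79b.

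The cytotoxic genes were both highest on 1 GFP array. Nkg7, a membrane protein of cytotoxic granules, read -1.69, -1.83 and -0.93 on the GFP arrays, -1.58, -1.73 and -1.75 with NICD1, -1.72, -1.43 and -1.37 with NICD2, and -1.39 and -1.59 with NICD1&2. Gzma, which encodes granzyme A, read -0.50, -0.53 and 0.49 on the GFP arrays, -0.20, -0.39 and -0.21 with NICD1, -0.33, 0.33 and -0.42 with NICD2, and -0.06 and -0.20 with NICD1&2. GFP 3 was the highest of the 11 arrays and GFP 2 the lowest for both genes. The spread of the GFP group (SD 0.49 for Nkg7 and 0.58 for Gzma) was therefore wider than that of any NICD group. Over all NICD groups the log2 difference was -0.08 (95% interval -0.49 to 0.34) for Nkg7 and 0.00 (95% interval -0.55 to 0.54) for Gzma. Within slide 1 these differences were 0.23 and 0.45, and within slide 2, where GFP 3 was the only GFP array, they were -0.68 and -0.80. Without GFP 3 they were 0.20 and 0.33 (adjusted p = 0.656 and 0.633 in limma), so the sign for Nkg7 rested on 1 array. The Gzma difference lay near 0 and also changed sign without NICD1 2 (0.018), NICD2 1 (0.028), NICD2 3 (0.045) or NICD1&2 2 (0.021). Deviations of Nkg7 and Gzma from their group means had a Pearson r of 0.80 over the 11 arrays, which share slides and normalization. How much of this r came from GFP 3 was not tested. For genes of 1 receptor the r was lower: 0.43 for Cd79a with Cd79b, and 0.37 and 0.18 for Cd3g with the Cd3e probes.

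**Figure D2:**
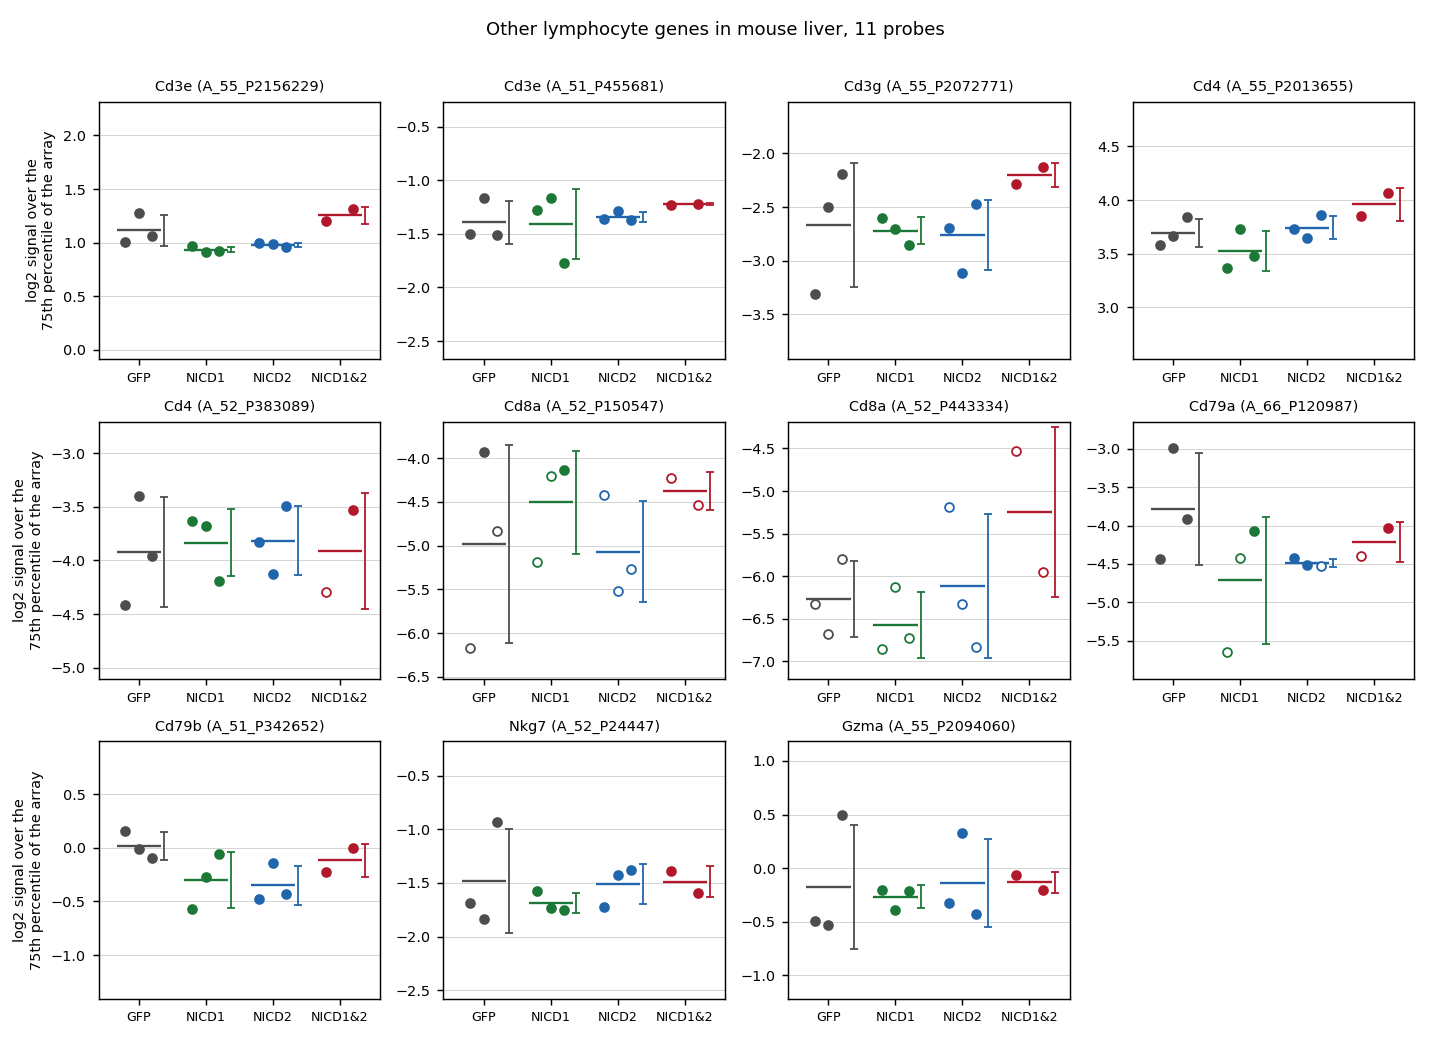
Log2 signal of the 11 probes of the other 8 genes relative to the 75th percentile of each array, by group. Points are arrays (open where not well above background), lines are group means and bars 1 SD, and each panel has its own axis range. GFP 3 stands above the other arrays for Nkg7 (-0.93) and Gzma (0.49), and all points of the Cd8a probe A_52_P443334 are open.

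Counted over the 13 member probes, 11 had a lower mean than GFP with NICD1, 9 with NICD2 and 4 with NICD1&2, against 47.1%, 45.7% and 34.98% of all tested probes, and the 3 comparisons share the same GFP arrays. The median log2 difference was -0.17, -0.10 and 0.12, against 0.01, 0.02 and 0.12 over all tested probes. These values moved when single arrays were left out. Without GFP 1 the counts were 13, 13 and 6 and the medians -0.23, -0.29 and 0.0078. Leaving out GFP 3 gave counts of 8, 8 and 4 and medians of -0.090, -0.018 and 0.12. Leaving out GFP 2 gave counts of 8, 9 and 5 and medians of -0.19, -0.14 and 0.22. With the percentile taken over detected probes the NICD1&2 median was 0.041, where that of all probes was 0.039, and after normexp background correction the medians were -0.064, -0.062 and 0.0070. Quantile normalization moved the median of all probes with NICD1&2 from 0.12 to 0.010. At an adjusted p under 0.05 in limma, 0 of 13 member probes were called with NICD1, against 0.00832% of all probes. With NICD2, 1 of 13 was called, against 0.0527%, and with NICD1&2, 0 of 13, against 0.0998%. Between NICD1 and NICD2, 0 of 13 were called against 0.00277%, and over all NICD groups against GFP, 0 of 13 against 0.061%. At an unadjusted p under 0.05, the counts were 0, 3, 1, 1 and 1 of 13 in the same order, against 5.48%, 6.81%, 14.8%, 3.74% and 10.0% of all probes. Without NICD1 3 the count with NICD1 was 2 of 13, beside 1441 of all 36055 probes. With so few calls over the whole array, the counts of members say little beyond the Ikzf3 probe itself.

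Under the looser rule of an unadjusted p under 0.15 with a fold change over 1.8, 1 of 13 passed with NICD1 (Cd79a, and 0 of 13 without NICD1 1), against 2.22% of all probes, and 1 with NICD2 (the least detected Ikzf3 probe), against 1.98%. None passed with NICD1&2, against 6.23%, and 1 passed between NICD1 and NICD2 (the same Ikzf3 probe), against 1.26%. Over all NICD groups 0 passed, against 2.51%. The counts over all probes moved with single arrays. With NICD1, NICD2 and NICD1&2 they were 802, 715 and 2247. They were 2022, 1522 and 3699 without GFP 2 and 510, 864 and 1376 without GFP 1. The member counts were 1, 1 and 1 without GFP 2 and 1, 2 and 0 without GFP 1. The arrays did not overlap those of GFP for 1 member probe with NICD1, against 12.4% of all probes. With NICD2 they did not overlap for 4 of 13, against 13.4%. These 4 were the Cd3e probe A_55_P2156229, Cd79b and 2 Ikzf3 probes, all lower with NICD2. With NICD1&2 they did not overlap for 2 of 13 (a Cd4 probe and the least detected Ikzf3 probe, which was not well above background on either of these NICD1&2 arrays), against 34.5%.

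**Figure D3:**
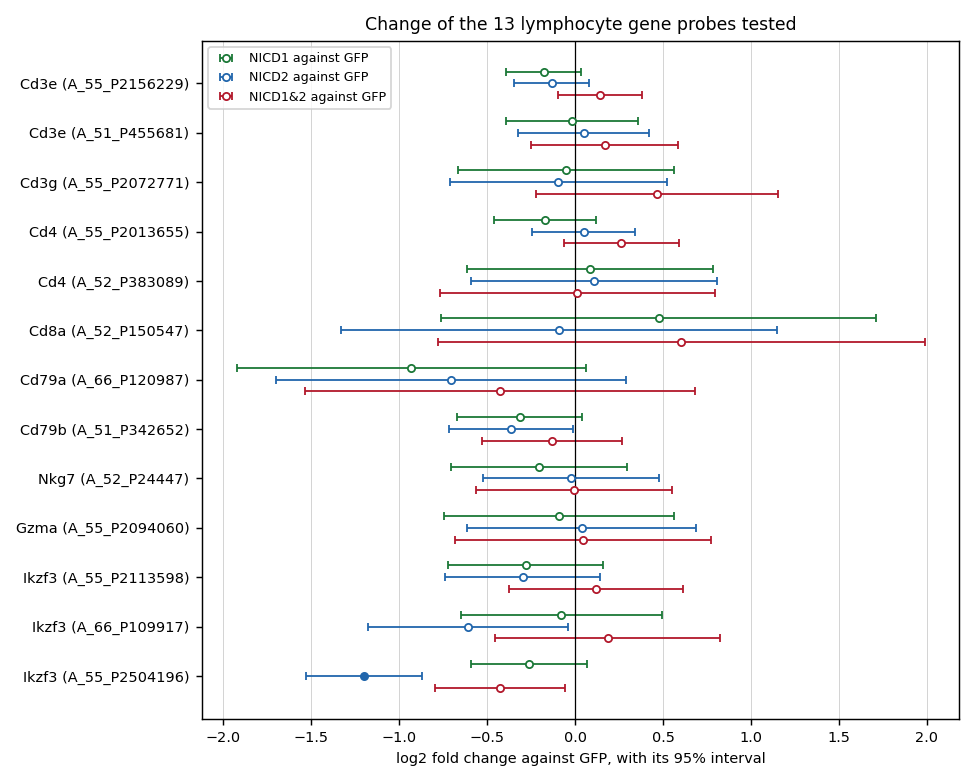
Log2 fold change against GFP of the 13 tested probes, with 95% intervals from limma, for NICD1, NICD2 and NICD1&2. The only filled point is the only called change, that of the least detected Ikzf3 probe with NICD2 (-1.20), and the Cd79a and Cd8a intervals are the widest.

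Other genes of the same cells were read through lists, each gene by its brightest probe, and 0 genes of any list were called in any comparison. Of 30 T cell genes 24 were tested, and over all NICD groups 16 had a lower and 8 a higher mean than GFP, with a median log2 difference of -0.13. Of 28 B cell genes 27 were tested, with 23 lower, 4 higher and a median of -0.14. Of 26 NK and cytotoxic genes 19 were tested, with 12 lower, 7 higher and a median of -0.08. Of 24 genes shared by leukocytes 23 were tested, with 18 lower, 5 higher and a median of -0.15. Of 15 genes for chemokines and cytokines that act on lymphocytes 14 had a probe and 12 were tested, with 9 lower, 3 higher and a median of -0.15. The median over all tested probes was 0.04 and 40.0% of them were lower, so the 5 list medians lay below the median of the array.

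By group, the B cell list had medians of -0.21 with NICD1 (23 of 27 lower), -0.17 with NICD2 (22 of 27 lower) and -0.06 with NICD1&2 (16 of 27 lower). The T cell list had medians of -0.08, -0.19 and -0.03 in the same order (17, 19 and 15 of 24 lower). The NK and cytotoxic list had medians of -0.11, -0.16 and 0.18. Over all probes the medians were 0.01, 0.02 and 0.12, and 47.1%, 45.7% and 34.98% were lower, so with NICD1&2 the B and T cell medians lay below that of all probes as well, and that of the NK and cytotoxic list did not.

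Genes beyond the looser rule were counted for NICD1, NICD2 and NICD1&2 in turn, against 2.22%, 1.98% and 6.23% of all probes. These shares moved with single arrays, as given above. The genes numbered 0, 0 and 1 of 24 in the T cell list, 0, 3 and 1 of 27 in the B cell list and 2, 1 and 5 of 19 in the NK and cytotoxic list. In the list of shared leukocyte genes they numbered 0 of 23 and in the chemokine list 0 of 12 with each vector. In the B cell list with NICD2, Fcrla had a log2 difference of -0.91 (adjusted p = 0.420 in limma) and Siglecg, an inhibitory receptor, one of 0.92 (adjusted p = 0.774). H2-DMb2 of antigen presentation was lower (adjusted p = 0.468 in limma) but not well above background on any NICD2 array, so no fold is given. Vpreb3, also of the B cell list, had a log2 difference of 1.06 with NICD1&2 (adjusted p = 0.249 in limma). The kinase gene Txk of the T cell list (adjusted p = 0.283 in limma) and Eomes of the NK list (adjusted p = 0.380) were lower with NICD1&2 but not well above background on either array of that group, so no fold is given. Ifng, the gene of interferon gamma, was well above background on 2 GFP arrays, 1 NICD2 array and no other array. It was at least 1.36-fold lower with NICD1 and at least 1.07-fold lower with NICD1&2, and its log2 difference with NICD2 was -1.41 (adjusted p = 0.910, 0.376 and 0.780 in limma). The NK cell receptor gene Ncr1 had a log2 difference of 1.003 with NICD1 and 1.02 with NICD1&2 (adjusted p = 0.910 and 0.448 in limma), and Klre1 one of 1.24 with NICD1&2 (adjusted p = 0.351). Beyond the looser rule, the 3 NK genes lower with NICD1&2 (Txk, Eomes and Ifng) were thus tested only through arrays of other groups. The same holds for H2-DMb2 of the B cell list with NICD2 and for Txk of the T cell list with NICD1&2. Nothing is read from the counts of these 3 lists, and none of these genes passed the adjustment. Txk stands in both the T cell and the NK lists, and Ccl5 in both the NK and the chemokine lists.

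The other Ikaros family genes were not called. Ikzf1 (Ikaros) had a log2 difference of -0.44 with NICD2 (SE 0.21, adjusted p = 0.774 in limma) on the probe detected on all arrays, with overlapping groups. On its other probe, well above background on 6 of 11 arrays, the difference was 0.09 (SE 0.45). Ikzf2 (Helios), well above background on 5 of 11 arrays and on none of the GFP arrays, was at least 1.73-fold higher with NICD1&2 (adjusted p = 0.380 in limma). Ikzf5 (Pegasus) had a log2 difference of 0.15 with NICD2 (SE 0.13, adjusted p = 0.927 in limma). Ikzf4 (Eos) had 4 tested probes, whose log2 differences ran from -0.44 to 0.34 with NICD1, from -0.68 to 0.37 with NICD2 and from -0.56 to 1.20 with NICD1&2, with no call. The highest of these, on probe A_55_P2743984, did not overlap GFP (adjusted p = 0.375 in limma). Nor did the lowest with NICD1&2, on probe A_55_P1979674 (adjusted p = 0.597 in limma).

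Markers of other leukocytes were read in the same way. All 13 Kupffer cell and macrophage genes were well above background on every array, and 11 of 13 had a lower mean over all NICD groups than in GFP (median log2 difference -0.10). Their signals, on a linear scale relative to the 75th percentile and summed over the list, ran from 119 to 177 in GFP, from 120 to 135 in NICD1, from 126 to 141 in NICD2 and from 158 to 169 in NICD1&2. The sums of all NICD groups thus lay within the range of GFP, and none of these genes was called. By group, 13 of the 13 genes had a lower mean than GFP with NICD1 (median -0.22) and 12 with NICD2 (median -0.16), while 8 had a higher mean with NICD1&2 (median 0.05, against 0.12 over all probes). The B cell medians of -0.21 and -0.17 with NICD1 and NICD2 stand beside macrophage medians of about the same size. The monocyte, neutrophil and dendritic cell list had 11 of 12 genes lower (median -0.13), and its sums ran from 98.8 to 100.3 in GFP and from 83.1 to 111.9 over the NICD1 and NICD2 arrays. The blood cell list, mostly haemoglobin and platelet genes, had 4 of 9 genes lower and a median of 0.01. The hepatocyte list had 7 of 12 genes lower over all NICD groups. By group, its medians were -0.14 with NICD1 (9 of 12 lower), 0.0093 with NICD2 (5 of 12 lower) and 0.14 with NICD1&2 (9 of 12 higher), beside member medians of -0.17, -0.10 and 0.12. The part of the macrophage, myeloid and hepatocyte genes in the lymphocyte values was not tested.

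Across arrays, GFP 3 was the highest in several lists of leukocyte genes. The mean log2 signal of the NK and cytotoxic list was -3.51, -3.08 and -2.62 on GFP 1, 2 and 3, and between -3.45 and -2.96 on all NICD arrays. The T cell list read -2.02 on GFP 3 against -2.50 to -2.28 on the NICD arrays, and the chemokine list read -0.29 on GFP 3 against -1.12 to -0.69 on the NICD arrays. GFP 3 was also the highest array for the lists of shared leukocyte genes (-0.86), of macrophages (2.95) and of monocytes, neutrophils and dendritic cells (-0.96), while the B cell list was highest on NICD1&2 2, at -2.76. Of the 13 member probes, 8 had their highest value on a GFP array (2 on GFP 1, 4 on GFP 2 and 2 on GFP 3), 5 on an NICD1&2 array and 0 on an NICD1 or NICD2 array.

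**Figure D4:**
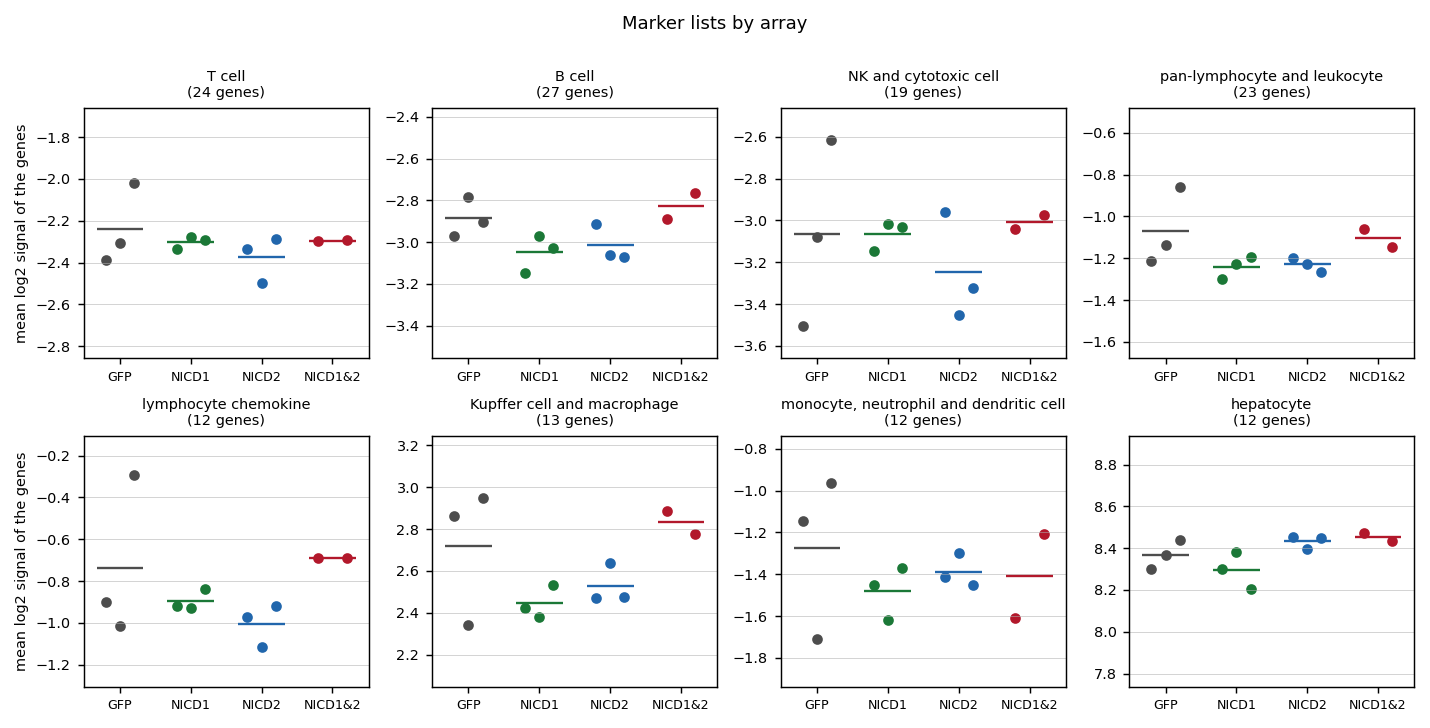
Mean log2 signal, relative to the 75th percentile of each array, over the tested genes of 8 marker lists, with 1 point per array and a line at the group mean. All panels span 1.2 log2 units on the vertical axis. GFP 3 is the highest array for the NK and cytotoxic list (-2.62) and for the chemokine list (-0.29), and the GFP arrays spread more widely than those of the NICD groups in these lists.

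Genes that varied like the members were ranked by the Pearson r of deviations from group means over the 11 arrays, among 19959 named probes well above background on all arrays. Nkg7 varied most like Trio (r = 0.95) and Cxcr3 (r = 0.95), a chemokine receptor of activated T and NK cells, followed by Shld2, Dock11 and Gvin1. Cd79b varied most like Rbm33 (r = 0.96), Atxn7l1, Wipi1, Ascc2 and Nsd3. Ikzf3 probe A_55_P2113598 varied most like Bbs5 (r = 0.99), Fam83f, Mrps33, Pnmt and Apoc3, and probe A_66_P109917 most like Ugt3a2 (r = 0.98), Rbm3, Ddias, Nt5c2 and Il17rb. The Cd3e probes varied most like Zfpm2 (r = 0.97) and Erbb3 (r = 0.97). No gene was shared by the lists of 5 for the Ikzf3 probes, nor by those for the Cd3e probes. The arrays share slides, a labelling and a normalization, and these values are a description only. The r between the Cd3e probes themselves was 0.50, and that between these Ikzf3 probes was 0.46. The least detected Ikzf3 probe, which held the called change, had an r of -0.41 with the first and of -0.26 with the second.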

How the data were processed

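Liver RNA was labelled with Cy3 and hybridised to Agilent 1-colour arrays of 62976 spots, more than the format named in the methods. The authors' Feature Extraction software gave each spot a background-subtracted intensity and a flag for signal well above background, per the file headers. The deposited table holds log2 values that the authors had reduced by the 75th percentile of each array. Against the scanner intensities these values differed by 1 constant per array, with a largest deviation of 1.26 on a probe with several spots. Those log2 values were used throughout. Of 56605 probes, 32994 were named by RefSeq (22911 genes), which may be newer than the names of the array design. A probe with several spots counted as well above background where no more of its spots lacked the flag than had it.

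The 36055 tested probes went into a linear model with 4 group means and 11 arrays (limma 3.58.1, R 4.3.3). The 5 comparisons were NICD1, NICD2, NICD1&2 and all NICD groups against GFP, and NICD1 against NICD2, each with Benjamini-Hochberg adjustment over all tested probes. Exact two-sided permutations of arrays (SciPy 1.17.1) cannot give a p under 0.1 for 3 or 2 arrays against 3. The fit was tested on simulated data. A bound against a group with no array well above background used, on each array, the higher of its lowest signal well above background and the signal of the probe. The looser rule, an unadjusted p under 0.15 with a fold change over 1.8, is the definition of an altered gene in the study. The arrays lay on 2 slides, each holding arrays of all 4 groups. The members and all gene lists were chosen with earlier results of these data known. In each other list the genes called or beyond the looser rule could be named, up to 5 a list, and a gene with several probes was represented by its brightest. Alternatives were the scanner intensities, 3 other normalizations or background corrections, 2 other filters, fits of the compared groups alone, replicate number or slide as a block, and leaving out each array. Replicate numbers did not pair the arrays. The methods and the labels name different RNA kits, and how RNA quality differed between arrays is not known.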

Additional observations from a re-analysis of the deposited data

Results flagged for a closer look

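On 2 probes all arrays of a group lay on one side of the GFP mean with 1 vector and on the opposite side with both vectors. For the Cd3e probe A_55_P2156229, the log2 difference from GFP was -0.18 with NICD1 and -0.13 with NICD2, but 0.14 with NICD1&2. For the Ikzf3 probe A_55_P2113598, it was -0.28 with NICD1 and -0.30 with NICD2, but 0.12 with NICD1&2. The difference between the combined and the single vectors was not tested. All 6 values were short of significance in limma, the median of all probes was also 0.12 higher with NICD1&2, and that group holds 2 arrays.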

How the results depend on the processing

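Of 31 fold changes, 23 of 598 recomputed values changed sign, in 10 results, none of which had been called. The Ikzf3 call with NICD2 (log2 difference -1.20, adjusted p = 0.0427 in limma) was lost with quantile normalization (-1.20, adjusted p = 0.260 in limma), normexp (-0.15, adjusted p = 0.450), no filter (-1.20, adjusted p = 0.0948), the compared groups alone (-1.20, adjusted p = 0.239) and the slide as a block (-1.20, adjusted p = 0.0781). Leaving out single arrays gave -1.32 to -1.07. The call was kept with scanner intensities, with the percentile over detected probes and without GFP replicate 2. With a filter of all 11 arrays the probe was not tested. Called member probes with NICD2 were thus 0 under these 5 settings and under that filter, and 0 to 1 without single arrays; the looser rule gave 1 with NICD1 and 1 between NICD1 and NICD2.

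Same-numbered arrays did not deviate together: r ran from -0.41 to 0.17 over 15 pairs, and 5 of 11 arrays correlated best with their own number. With the replicate block, 12 probes were called with NICD2 against 19 without it, the member count was 0, Ikzf3 was at -1.20 (adjusted p = 0.106 in limma) and Gzma at 0.022.

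Over all probes, normexp gave 7, 71, 346, 5 and 127 calls for NICD1, NICD2, NICD1&2, NICD1 against NICD2 and all NICD groups, against 3, 19, 36, 1 and 22. No filter gave 9 with NICD2, 23 with NICD1&2 and 12 over all NICD groups, and a filter of all 11 arrays 45, 112 and 67. The compared groups alone gave 0 with NICD1, 5 with NICD2, 0 with NICD1&2 and 0 between NICD1 and NICD2. The slide block gave 12 with NICD2 and 13 over all NICD groups. Between NICD1 and NICD2, the percentile over detected probes and quantile normalization each gave 2. Leaving out single arrays gave 10 to 17 with NICD2, 4 (without NICD1&2 replicate 2) to 224 (without NICD1&2 replicate 1) with NICD1&2, 1 to 2 between NICD1 and NICD2 and 11 to 21 over all NICD groups.

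The uncalled values that changed sign were these, in log2 units over all NICD groups. Quantile normalization gave -0.0069 and -0.103 for the Cd4 probes, and normexp -0.033 for Cd8a. Without single arrays the first Cd3e probe ran from -0.11 to 0.023, Cd3g from -0.22 to 0.34, the Cd4 probes from -0.010 to 0.12 and from -0.18 to 0.33, Cd8a from -0.27 to 0.85, Nkg7 from -0.25 to 0.20 and Gzma from -0.18 to 0.33. Ikzf3 probe A_55_P2113598 ran from -0.12 to 0.23 between NICD1 and NICD2. Ikzf3 probe A_66_P109917 ran from -0.27 to 0.10 with NICD1 (0.0037 with the slide block) and from -0.12 to 0.49 with NICD1&2. The cause of these changes was not tested. Signal over background limits Cd8a, Cd79a and the least detected Ikzf3 probe.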
